A study of Homo sapiens with 60 samples.

Results

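The genes described here make cholesterol or control how much of it is made. They are 30 genes chosen by symbol from the 60675 Ensembl gene identifiers of the deposited table: 20 that act in the synthesis of cholesterol from acetyl-CoA, 6 that control the transcription factor SREBP2, and 4 that move sterols or are linked to SREBP2 in other ways. All 30 had an identifier, and all 30 were among the 16924 genes that passed the filter on low counts. RNA was sequenced from HepG2 (a human liver cancer line in which many liver proteins are still made) after 24 h with a herbal extract or with vehicle.

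Each extract was given at a high, a medium and a low dose, each 5 times the next. Water extracts of the decoctions Yijin-tang (yijin) and Soshiho-tang (soshiho) and ethanol extracts of Schisandrae Fructus (schisandra), Liriopis seu Ophiopogonis Tuber (liriope), Longan Arillus (longan) and Zizyphi Semen (zizyphus) were used at 500, 100 and 20 µg/mL. The ethanol extract of Polygalae Radix (polygala) was used at 250, 50 and 10 µg/mL, and that of Aucklandiae Radix (aucklandia) at 280, 56 and 11.2 µg/mL. There were 3 libraries at each dose of yijin, schisandra, liriope, longan and zizyphus, 2 at each dose of soshiho, 1 at each dose of polygala and aucklandia, and 3 vehicle libraries, which the sample labels give as 0.1% DMSO, 60 libraries in all. Nothing in the labels tells whether the replicates were separate cultures, and p-values therefore measure only the spread between these libraries, which may be technical.

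Cholesterol is built from acetyl-CoA through mevalonate, isoprenoid diphosphates, squalene and lanosterol. SREBP2, the product of SREBF2, is made as a membrane protein of the endoplasmic reticulum, where SCAP escorts it and the INSIG proteins hold it back when sterols are plentiful. When sterols are scarce, SCAP carries SREBP2 to the Golgi, the proteases encoded by MBTPS1 and MBTPS2 release its active part, and that part raises the transcription of most of the synthesis genes together. The liver is a main site of this pathway in the body, and HepG2 is a common cell model of it.

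SREBP2 binds promoters at sterol response elements, usually beside sites for the CCAAT-binding factor NF-Y and the GC-box factor Sp1, so promoters of contrasting members are shown first. RefSeq promoters (GRCh38.p14, 250 bases before to 50 after the start) were matched by symbol for 27 of the 30 genes; ACAT2, FDFT1 and SQLE were not matched. Of the 27, 19 (70.4%) held CCAAT on either strand, against 35.7% of all 27305 promoters of that length. That larger set was not limited to genes that passed the filter on low counts, as these 27 did. The GC box GGGCGG was in 21 (77.8%), against 44.6% of all promoters. The form TCACNCCAC of the sterol response element, read on either strand, was in 1 (3.7%), against 1.15%, and that gene was SREBF2. None of these 3 motifs is contained in another, and a match describes letters only. Below are the 150 bases that end just before the start, 5′ to 3′ on the gene's strand, with the 3 motifs in capitals (CCAAT reads ATTGG and GGGCGG reads CCGCCC on the other strand). MVD, HMGCS1 and LSS had the largest falls with yijin among the called genes with a promoter, and GGPS1 and SCAP changed least. SREBF2 was added after the motif search because it held TCACNCCAC. Other forms of the sterol response element were not searched, so their presence in the other promoters is not known from this search.
MVD: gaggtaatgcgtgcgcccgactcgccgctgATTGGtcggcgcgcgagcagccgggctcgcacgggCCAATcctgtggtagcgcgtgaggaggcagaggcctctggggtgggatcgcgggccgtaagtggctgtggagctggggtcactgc
HMGCS1: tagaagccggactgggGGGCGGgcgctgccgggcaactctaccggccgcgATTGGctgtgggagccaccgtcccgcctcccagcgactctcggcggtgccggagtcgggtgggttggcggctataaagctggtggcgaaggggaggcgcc
LSS: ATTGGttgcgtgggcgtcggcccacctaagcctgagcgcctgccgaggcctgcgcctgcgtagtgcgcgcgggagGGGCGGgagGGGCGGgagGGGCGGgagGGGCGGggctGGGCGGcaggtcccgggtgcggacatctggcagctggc
GGPS1: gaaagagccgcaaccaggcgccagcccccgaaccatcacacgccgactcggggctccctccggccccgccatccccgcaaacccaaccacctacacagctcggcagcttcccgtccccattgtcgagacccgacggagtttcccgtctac
SCAP: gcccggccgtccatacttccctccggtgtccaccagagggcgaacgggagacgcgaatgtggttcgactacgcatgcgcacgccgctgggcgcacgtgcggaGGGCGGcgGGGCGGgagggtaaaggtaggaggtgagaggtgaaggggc
SREBF2: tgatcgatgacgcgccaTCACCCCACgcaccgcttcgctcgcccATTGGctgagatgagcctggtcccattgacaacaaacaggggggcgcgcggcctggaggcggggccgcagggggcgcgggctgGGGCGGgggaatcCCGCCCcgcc
These lie at chr16:88663092-88663241 (minus strand), chr5:43313413-43313562 (minus strand), chr21:46228775-46228924 (minus strand), chr1:235327066-235327215 (plus strand), chr3:47475942-47476091 (minus strand) and chr22:41832955-41833104 (plus strand). In the printed stretch CCAAT stands at positions -120 and -85 of MVD, -100 of HMGCS1 and -150 of LSS, counted back from the start, and LSS holds 5 GC boxes between -75 and -38. GGPS1 shows none of the 3 motifs there, and SCAP shows GC boxes without CCAAT. SREBF2 has TCACCCCAC at -133 and CCAAT at -106. The windows of IDI1 and CYP51A1, which fell with yijin, hold no CCAAT, and that of RDH11, which was not called with yijin, holds CCAAT.

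Library totals ran from 20.7 M to 38.0 M counts. The libraries schisandra low replicate 1 and liriope high replicate 2 stood apart: their genes differed from the other libraries of their group with a standard deviation of 0.46 and 0.44 on the log2 scale, against 0.32 to 0.41 in all other libraries of replicated groups, and results that rest on them are given with and without them. Mitochondrial genes took 9.50 to 15.9% of counts in treated libraries and 15.2 to 18.4% in vehicle libraries. All 6 hepatocyte markers (ALB, AFP, APOA2, HNF4A, FGB and TF) were detected, with a summed level of 7649 to 18160 CPM in treated and 13320 to 13540 CPM in vehicle libraries. CPM are counts scaled to a common library size, which was normalised everywhere except in the marker sums given here. Fibroblast, leukocyte and endothelial marker sums did not exceed 7.04 CPM in any treated library and 5.29 CPM in any vehicle library.

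In vehicle cells the pathway was well expressed. Per kilobase of exon, the highest levels were those of FDFT1 (squalene synthase) at 92.7 CPM, SQLE (squalene epoxidase) at 92.5 CPM and HMGCS1 (HMG-CoA synthase) at 83.5 CPM. The lowest among the enzymes were GGPS1 at 5.71 and PMVK at 6.18 CPM per kilobase. INSIG2 stood at 8.39 CPM per kilobase, and INSIG1 at 0.108. INSIG1 had from 1 to 11 counts in each of the 54 libraries of the replicated groups. With so few counts only a very large change of INSIG1 could be seen. For 11 of the 30 genes over 90% of deposited values had a fraction, a sign that reads were shared with other loci (ACAT2, HMGCS1, MVK, IDI1, FDPS, LSS, CYP51A1, HSD17B7, SREBF2, MBTPS2 and TMEM97). Reads of ACAT2, MVK, GGPS1, ERG28 and TMEM97 could also come from an overlapping gene on the other strand, and those of TM7SF2 from VPS51 on the same strand; the kit keeps strand, but the strand setting of the counting is not given in the sources used here.

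Yijin at the high dose lowered nearly the whole synthesis pathway. Relative to its low dose, 22 of the 30 genes fell and 0 rose at an adjusted p under 0.05 (edgeR quasi-likelihood test, Benjamini-Hochberg over all 16924 genes), whereas 4.01% of all tested genes were called lower and 3.78% higher. The median log2 change over the 30 genes was -0.34, against -0.003 over all tested genes. The 22 falls ran from NPC1L1, which fell by 13.9%, to MVD, which fell by 34.9%. In 25 of the 30 genes every high-dose library lay below every low-dose library, which held for 13.5% of tested genes. In bulk libraries such as these, fewer cells of a kind and less RNA per cell cannot be told apart.

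At the start of the pathway ACAT2, the cytosolic thiolase that joins acetyl-CoA units, fell by 28.8% with yijin (log2 change -0.49, SE 0.043, adjusted p = 1.75e-11). HMGCS1, which makes HMG-CoA, measured 276, 268 and 256 CPM at the high dose, against 412, 398 and 388 CPM at the low dose. The 2 groups did not overlap, and the change was -0.58 on the log2 scale (SE 0.056, adjusted p = 2.65e-10). Of the 6 genes from mevalonate to isoprenoid diphosphates, 4 fell. MVD, the decarboxylase that makes isopentenyl diphosphate, measured 172, 162 and 168 CPM at the high dose, against 249.5, 252 and 269 CPM at the low dose. Its high-dose libraries lay far below the low-dose ones, with the largest fall of the pathway among genes that passed the test (log2 change -0.62, SE 0.067, adjusted p = 5.24e-09). The kinase MVK, the isomerase IDI1 and the farnesyl diphosphate synthase FDPS changed by -0.47, -0.40 and -0.39 on the log2 scale. PMVK (log2 change -0.03, 95% interval -0.28 to 0.21) and GGPS1, which leads into the side branch for protein prenylation (log2 change 0.00, 95% interval -0.15 to 0.16), did not pass the test.

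All 3 genes from farnesyl diphosphate to lanosterol fell with yijin. LSS, the cyclase that makes lanosterol, measured 246, 240.4 and 246 CPM at the high dose, against 360.3, 362 and 369.6 CPM at the low dose. Every high-dose value was lower than the low-dose values (log2 change -0.58, SE 0.055, adjusted p = 2.24e-10). FDFT1 and SQLE changed by -0.43 and -0.37 on the log2 scale. All 9 genes from lanosterol to cholesterol fell as well. TM7SF2, a sterol reductase, measured 60.3, 62.3 and 63.3 CPM at the high dose, against 84.6, 93.5 and 93.8 CPM at the low dose. These groups were also apart (log2 change -0.55, SE 0.049, adjusted p = 2.47e-11). ERG28, known in yeast as a scaffold of the demethylation enzymes, changed by -0.54 (log2), HSD17B7 by -0.40, and CYP51A1, the lanosterol demethylase, by -0.34. DHCR7, which makes cholesterol from its last precursor, changed by -0.34, SC5D by -0.34, MSMO1 by -0.33, NSDHL by -0.27 and EBP by -0.23. Among 4 genes with other links to SREBP2, the sigma-2 receptor gene TMEM97 (-0.47), the sterol carrier STARD4 (-0.27) and the sterol uptake gene NPC1L1 (-0.22) fell, and the retinol dehydrogenase gene RDH11 was at -0.13 (adjusted p = 0.0789). STARD4 lost its call without yijin low replicate 1 or without yijin high replicate 3 (largest adjusted p = 0.0524).

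**Figure D1:**
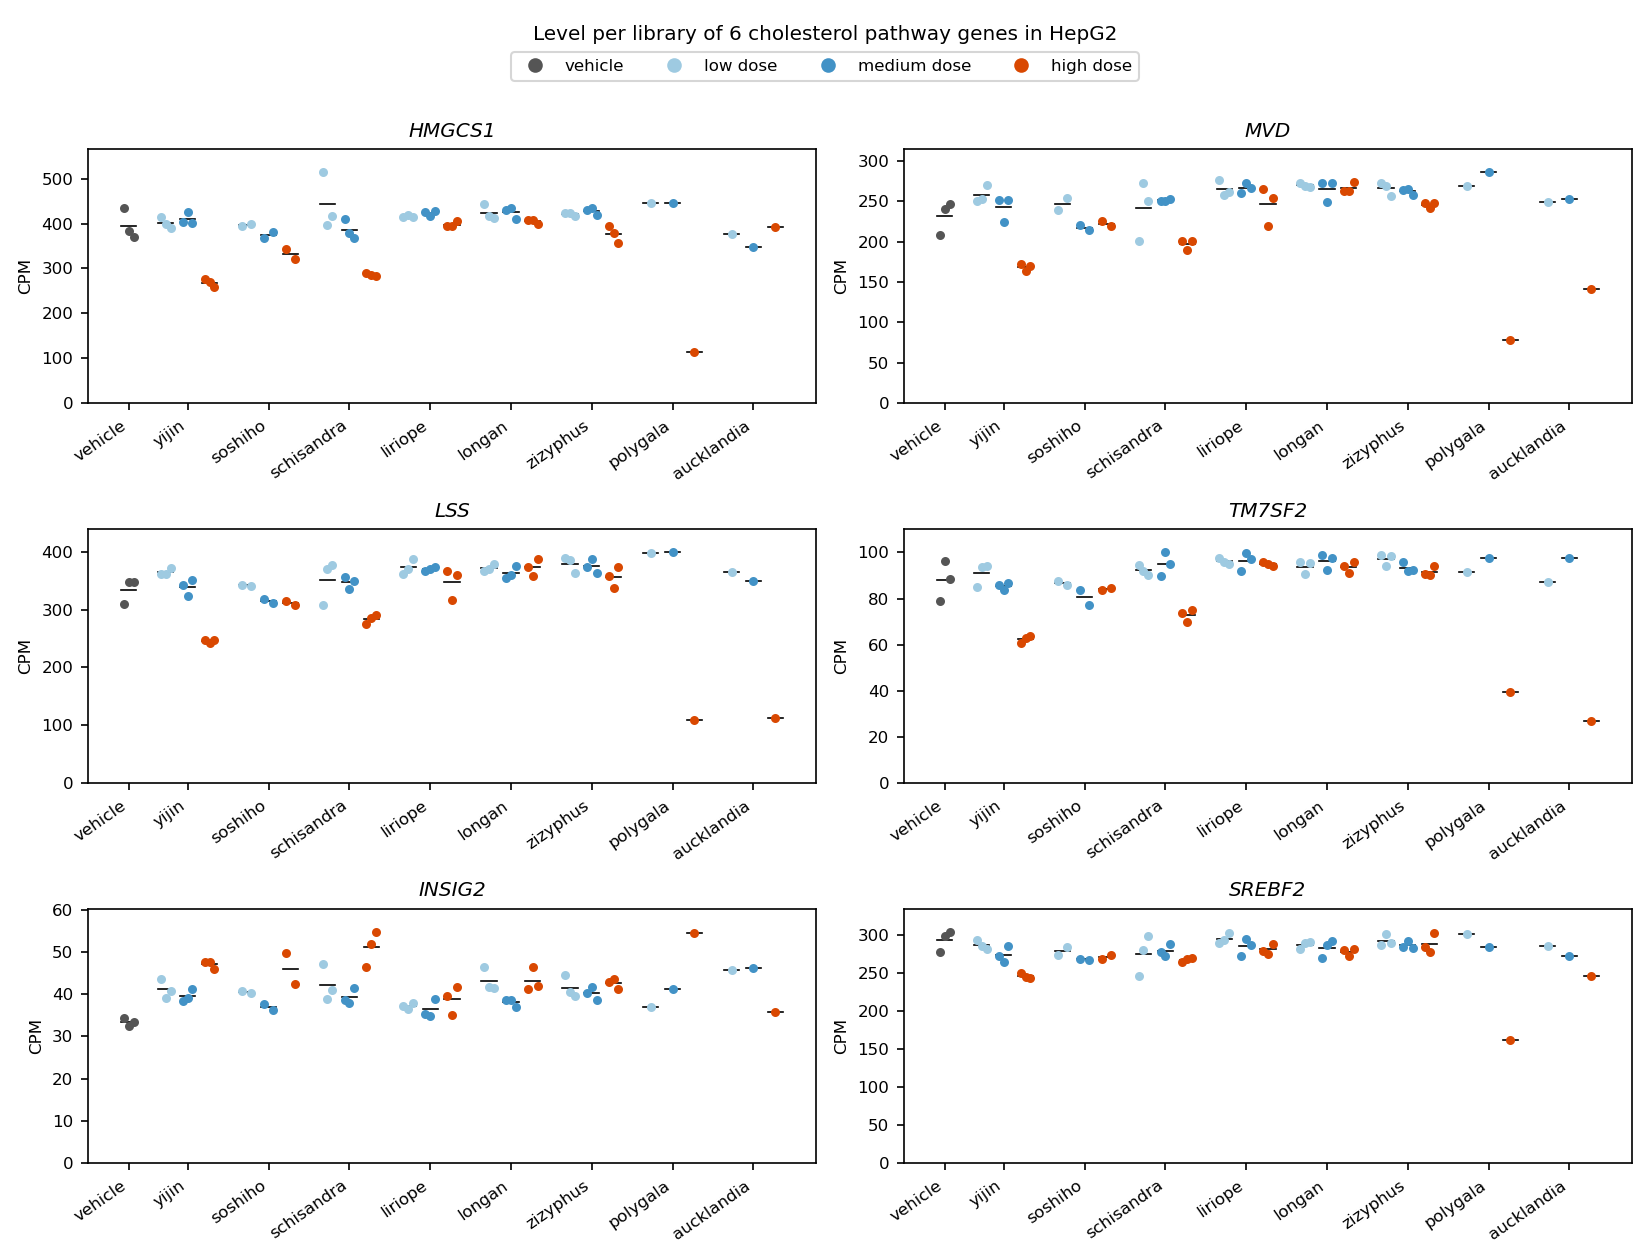
Level (CPM, normalised over all 60 libraries, 1 point per library, bar at the mean) of 6 genes in vehicle and at the low, medium and high dose of each extract. HMGCS1, MVD, LSS and TM7SF2 sit lower on average at the high dose of yijin, schisandra and polygala than at the low dose; INSIG2 sits higher there, and polygala and aucklandia have 1 library per dose.

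Schisandra at the high dose lowered 21 of the 30 genes relative to its low dose and raised 1, with 3.40% of all tested genes called lower and 3.92% higher. The median log2 change over the 30 genes was -0.29, against -0.006 over all tested genes. All high-dose libraries lay below all low-dose ones in 20 genes (8.87% of tested genes). HMGCS1 had the largest fall. It measured 289, 284 and 283 CPM at the high dose, against 508, 396 and 414 CPM at the low dose. Its low-dose values were uneven, with the outlying replicate 1 the highest (log2 change -0.62, SE 0.056, adjusted p = 3.83e-11), and without that library the log2 change was -0.51 (adjusted p = 4.44e-10). IDI1 measured 111, 117 and 109.8 CPM at the high dose, against 184, 135 and 136 CPM at the low dose. Here too replicate 1 at the low dose stood above the others (log2 change -0.43, SE 0.073, adjusted p = 5.25e-05), and leaving it out gave -0.27 (adjusted p = 0.00655), a fall smaller by over 1.5 times. SQLE measured 298, 282 and 292 CPM at the high dose, against 415, 372 and 384 CPM at the low dose. CYP51A1 measured 196, 206 and 202 CPM at the high dose, against 272, 255 and 259.9 CPM at the low dose. Both were lower in every high-dose library, with log2 changes of -0.43 (SE 0.036, adjusted p = 4.7e-12) for SQLE and -0.38 (SE 0.04, adjusted p = 2.08e-09) for CYP51A1.

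Of the 20 synthesis genes, 18 fell with schisandra; PMVK (-0.19, adjusted p = 0.376) and DHCR7 (-0.06, adjusted p = 0.48) did not pass the test. STARD4 (-0.34), TMEM97 (-0.36) and RDH11 (-0.21) were the other 3 that fell, and NPC1L1 was at -0.04 (adjusted p = 0.749). The gene that rose was INSIG2, one of the pair of proteins that hold SREBP2 back: it measured 46.4, 51.8 and 54.4 CPM at the high dose, against 46.5, 38.6 and 40.8 CPM at the low dose. The lowest high-dose library lay within the low-dose range (log2 change 0.27, SE 0.066, adjusted p = 0.00524), and without schisandra high replicate 3 the call was lost (adjusted p = 0.0668). GGPS1 (-0.24), SC5D (-0.30) and ERG28 (-0.36) also lost their calls without the outlying low replicate 1, as did RDH11, and so did GGPS1, SC5D, ERG28 and EBP (-0.18) without high replicate 3. GGPS1 and EBP needed high replicate 1 as well, GGPS1 high replicate 2, and MVD (-0.29) low replicate 2. When only the libraries compared and vehicle were fitted, MVD, GGPS1, LSS (-0.31; adjusted p = 0.052), EBP, SC5D, INSIG2 (adjusted p = 0.0705) and RDH11 lost their calls. With both outlying libraries of the study left out, 19 genes were called. Of the genes that fell, 19 were shared by yijin and schisandra, out of 22 with yijin and 21 with schisandra. The overlap of falls over all tested genes was not counted.

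**Figure D2:**
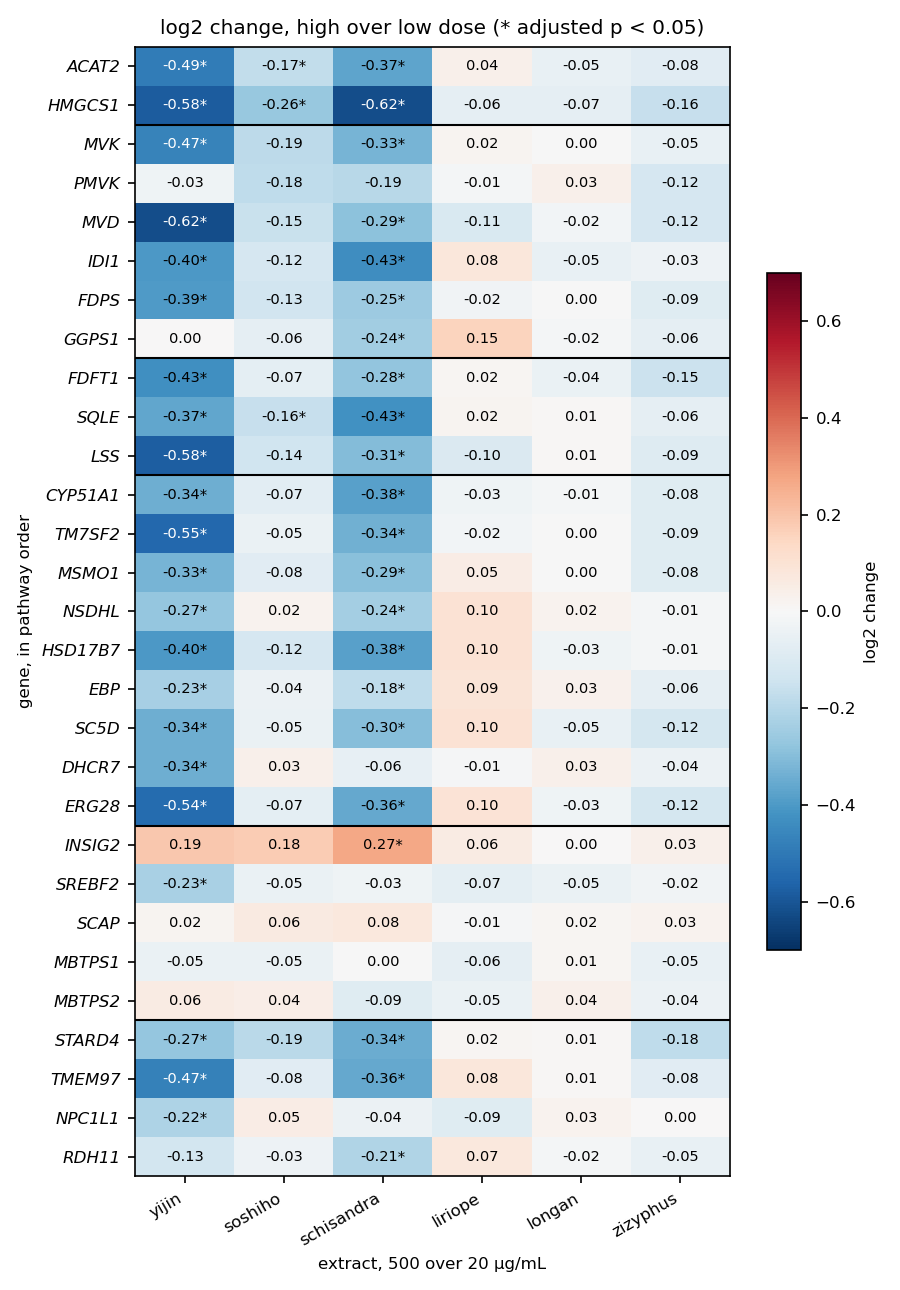
Log2 change at the high over the low dose for 29 genes (INSIG1 is left out for its low counts) in pathway order and 6 replicated extracts, from the edgeR fit; an asterisk marks an adjusted p under 0.05 and lines separate roles. The yijin and schisandra columns are blue over nearly all synthesis genes, soshiho carries 3 asterisks, and liriope, longan and zizyphus carry 0.

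Soshiho at the high dose lowered 3 of the 30 genes relative to its low dose and raised 0, with 2.27% of tested genes called lower and 2.81% higher. The median log2 change over the 30 was -0.07, against -0.002 over all tested genes. HMGCS1 measured 340.3 and 319 CPM at the high dose, against 394 and 397 CPM at the low dose (log2 change -0.26, SE 0.069, adjusted p = 0.012). ACAT2 measured 217 and 209.8 CPM at the high dose, against 248 and 233 CPM at the low dose (log2 change -0.17, SE 0.052, adjusted p = 0.0413). SQLE measured 333 and 329.5 CPM at the high dose, against 372 and 369 CPM at the low dose (log2 change -0.16, SE 0.044, adjusted p = 0.0186). In all 3 genes both high-dose libraries were the lower ones, and this held for 21 of the 30 genes, but with 2 libraries a dose it also held for 25.6% of all tested genes. Each call was lost when certain single libraries were left out. HMGCS1 lost its call without soshiho low replicate 2, high replicate 3 or low replicate 3, and ACAT2 without high replicate 2, low replicate 2 or high replicate 3. SQLE lost its call without any 1 of the 4 libraries. ACAT2 and SQLE also lost theirs without the filter on low counts. DESeq2 called 4 genes.

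With liriope, longan and zizyphus none of the 30 genes passed the test between high and low dose (0 called in edgeR, and 0 by DESeq2, in each), with or without the outlying liriope high replicate 2. The shares of tested genes called in either direction were 0.0295% with liriope, 0.0177% with longan and 0.0355% with zizyphus. At an unadjusted p under 0.05 the counts were 1, 0 and 5 genes, in that order. HMGCS1, the gene followed in every extract, measured 393, 391 and 404 CPM at the high dose, against 412, 418 and 412 CPM at the low dose with liriope (log2 change -0.06, adjusted p = 0.767). With longan it measured 407, 407 and 399 CPM at the high dose, against 442, 416 and 411 CPM at the low dose (log2 change -0.07, adjusted p = 1). With zizyphus it measured 394, 378 and 354 CPM at the high dose, against 423, 422 and 415 CPM at the low dose (log2 change -0.16, adjusted p = 0.749). In all 3 extracts the high-dose libraries of HMGCS1 lay below the low-dose ones without overlap, by amounts that did not pass the test. With zizyphus 9 of the 30 genes had all high-dose libraries below all low-dose ones (4.21% of tested genes); with liriope 2 (4.11%) and with longan 1 (4.67%). The 9 with zizyphus were HMGCS1, MVD, FDFT1, SQLE, CYP51A1, TM7SF2, MSMO1, SC5D and STARD4.

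The high over low dose changes of the extracts were then set against each other, as differences of log2 changes, in all 15 pairs of the 6 replicated extracts at equal doses, with p-values adjusted over all tested genes within each pair. The sample codes place yijin with soshiho, liriope with schisandra, and longan with zizyphus. In every other pair the extract and the code set cannot be told apart. A decoction against any of the other extracts also sets a water extract against an ethanol extract. Yijin and schisandra differed in 1 gene (0.544% of tested genes were called lower in yijin and 0.414% higher). That gene was DHCR7, which measured 258, 254 and 254 CPM at the high dose, against 324, 319 and 329.9 CPM at the low dose of yijin. With schisandra it measured 287, 302 and 296 CPM at the high dose, against 302, 296 and 324 CPM at the low dose. The yijin doses were apart and the schisandra doses overlapped, and the difference was -0.29 (SE 0.059, adjusted p = 0.00792). For MVD the difference was -0.33 (95% interval -0.52 to -0.14, adjusted p = 0.0714) and for LSS -0.27 (95% interval -0.43 to -0.11, adjusted p = 0.0742), which did not pass. SREBF2, called with yijin and not with schisandra, differed by -0.19 (adjusted p = 0.132) and GGPS1, called with schisandra and not with yijin, by 0.25 (adjusted p = 0.292). HMGCS1 differed by 0.04 with a 95% interval of -0.12 to 0.2. The DHCR7 call was lost when only these extracts and vehicle were fitted (adjusted p = 0.0694) and without the filter on low counts (-0.25, adjusted p = 0.0891), and DESeq2 called 3 genes. Without schisandra low replicate 2 the count was 3, and without schisandra low replicate 3 it was 5.

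**Figure D3:**
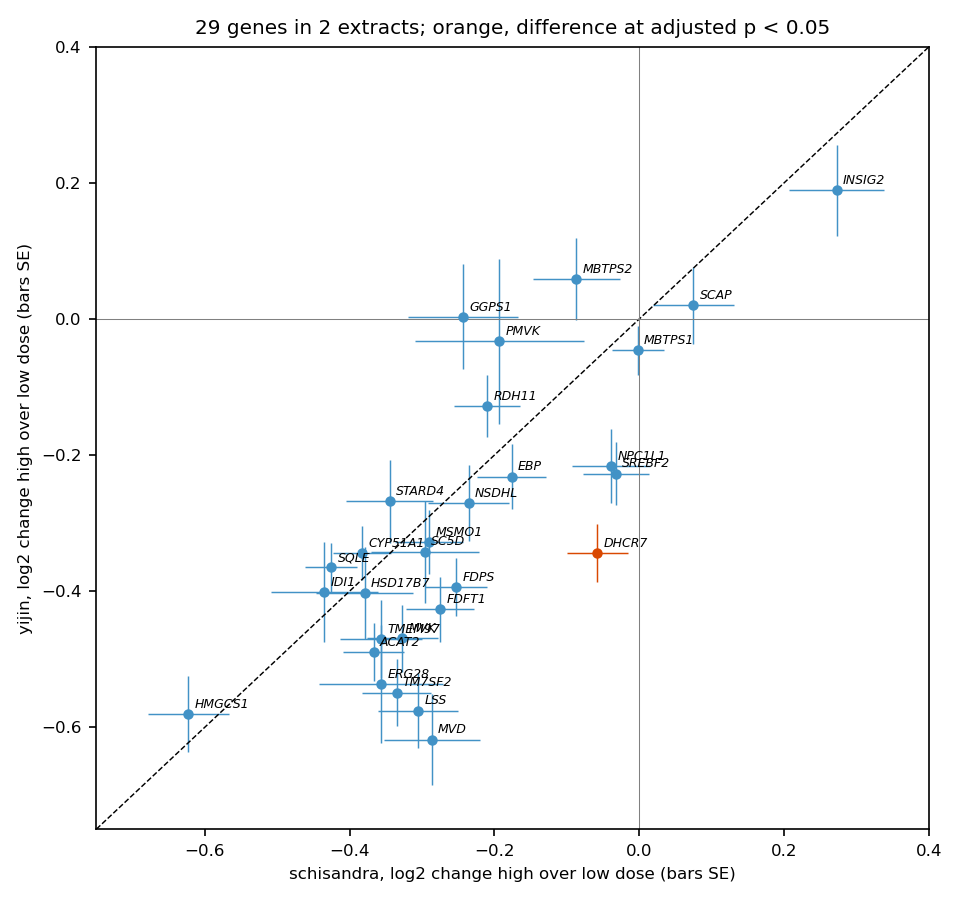
Log2 change at the high over the low dose of yijin (vertical) against schisandra (horizontal) for 29 genes, with standard errors as bars and a dashed line of equal change. Most genes lie near the line; MVD, LSS, TM7SF2 and DHCR7 lie below it, and DHCR7, in orange, is the 1 gene whose difference passed the test.

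The 2 decoctions, which share a code set in the sample labels, differed in 9 genes, all lower in yijin, where 0.650% of tested genes were called lower. The smallest p-values belonged to TM7SF2 with -0.50 (SE 0.076, adjusted p = 8.48e-05), DHCR7 with -0.38 (SE 0.067, adjusted p = 0.000778) and LSS with -0.44 (SE 0.087, adjusted p = 0.00312), and the other 6 were ACAT2, MVD, FDPS, FDFT1, CYP51A1 and TMEM97. HMGCS1, lowered by both, was not among them (-0.32, adjusted p = 0.0754). Without soshiho high replicate 2, or without soshiho low replicate 3, 5 genes were called. Soshiho minus schisandra gave 4 genes, all higher in soshiho (0.721% of tested genes): CYP51A1 with 0.31 (SE 0.063, adjusted p = 0.00323), SQLE with 0.27 (SE 0.056, adjusted p = 0.00495), HMGCS1 with 0.36 (SE 0.088, adjusted p = 0.0226) and TM7SF2. HMGCS1 lost this call in the fit of only these extracts and vehicle (adjusted p = 0.316), without soshiho high replicate 2 (0.21), low replicate 2 (0.118) or low replicate 3 (0.0978), without schisandra low replicate 1 (0.111) or high replicate 3 (0.0525), and without both outlying libraries (0.0884). SQLE lost it without the filter on low counts (adjusted p = 0.0996) and in the fit of only these extracts and vehicle (0.117), and CYP51A1 without soshiho high replicate 2 (0.0722). Left out in turn, soshiho high replicate 2 brought this to 1 gene, and soshiho low replicate 2, soshiho low replicate 3 or schisandra low replicate 1 to 2 genes.

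Against the 3 milder extracts, yijin fell further in 19 genes with liriope as the partner (1.48% of tested genes), 17 with longan (1.22%) and 14 with zizyphus (0.827%). The leading genes were ACAT2 (-0.53, SE 0.06, adjusted p = 7.05e-08), TM7SF2 (-0.53, SE 0.068, adjusted p = 6.56e-07) and SQLE (-0.38, SE 0.05, adjusted p = 1.21e-06) against liriope. Against longan they were TM7SF2 (-0.54, SE 0.068, adjusted p = 1.01e-06), LSS (-0.59, SE 0.078, adjusted p = 2.97e-06) and SQLE (-0.37, SE 0.05, adjusted p = 3.54e-06), and against zizyphus ACAT2 (-0.41, SE 0.06, adjusted p = 1.78e-05), TM7SF2 (-0.46, SE 0.068, adjusted p = 2.11e-05) and LSS (-0.48, SE 0.078, adjusted p = 9.43e-05). Schisandra fell further in 19 genes against liriope (2.04%), 13 against longan (0.579%) and 7 against zizyphus (0.544%). SQLE led each time, with -0.44 (SE 0.05, adjusted p = 3.81e-08) against liriope, -0.43 (SE 0.05, adjusted p = 1.13e-07) against longan and -0.36 (SE 0.05, adjusted p = 6.25e-06) against zizyphus. HMGCS1 followed with -0.56, -0.56 and -0.46, in the same order of partners; its call against zizyphus was lost in the fit of only these extracts and vehicle (adjusted p = 0.0576). The third gene was ACAT2 against liriope (-0.40) and CYP51A1 against longan (-0.37) and zizyphus (-0.30). Without the outlying schisandra low replicate 1 all of these were smaller and stayed called. In the same order of partners, SQLE was then at -0.397, -0.387 and -0.315 and HMGCS1 at -0.44, -0.439 and -0.342. ACAT2 was at -0.365 against liriope, and CYP51A1 at -0.344 against longan and -0.274 against zizyphus. Leaving out longan low replicate 2 brought the count against longan to 7. Leaving out schisandra high replicate 3, zizyphus high replicate 1 or zizyphus low replicate 3 brought that against zizyphus to 4. No difference between soshiho and liriope, longan or zizyphus passed the test in any of the 30 genes in edgeR (0 called in each, with 6, 5 and 0 at an unadjusted p under 0.05; 2, 0 and 0 by DESeq2), while 3.10, 2.04 and 2.02% of tested genes were called. Leaving out liriope high replicate 1 gave 1 gene against liriope. The 3 pairs among liriope, longan and zizyphus gave 0 genes in edgeR and in DESeq2 (0, 5 and 1 at an unadjusted p under 0.05; 0, 0 and 0.00591% of tested genes).

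The dose steps showed where the falls came. Between low and medium dose none of the 30 genes passed the test with any of the 6 replicated extracts in edgeR or in DESeq2; 1 (yijin), 3 (soshiho), 5 (schisandra), 0 (liriope), 1 (longan) and 1 (zizyphus) had an unadjusted p under 0.05. Few genes of any kind were called at that step (0.00591% of tested genes with yijin, 0.118% with soshiho, 0.0709% with schisandra, 0% with liriope, 0% with longan and 0.00591% with zizyphus). Without schisandra low replicate 2 the count with schisandra was 3. Between medium and high dose 21 genes fell and 1 rose with yijin (2.43% of tested genes lower, 2.22% higher), and 17 fell and 1 rose with schisandra (1.26% lower, 1.93% higher). With soshiho 0 fell and 1 rose (1.47% lower, 1.75% higher). With liriope, longan and zizyphus 0 genes were called in edgeR at this step, where 0.0236, 0.0177 and 0.0177% of tested genes were (unadjusted p under 0.05 in 2, 1 and 3 of the 30; 0, 0 and 0 by DESeq2). The gene that rose was INSIG2 in all 3 (log2 changes 0.25, 0.31 and 0.37 with yijin, soshiho and schisandra); with soshiho the call was lost without high replicate 2, medium replicate 2 or medium replicate 3. HMGCS1 shows the shape. In the yijin series it averaged 393 ± 33.8 CPM in vehicle, 399 ± 12.0 CPM at the low dose, 409 ± 12.5 CPM at the medium dose and 267 ± 9.77 CPM at the high dose (SD, n = 3 each). In the schisandra series it averaged 439 ± 60.2 CPM at the low dose, 385 ± 21.9 CPM at the medium dose and 285 ± 3.50 CPM at the high dose (SD, n = 3 each). MVD in the yijin series averaged 230.1 ± 20.4 CPM in vehicle, 257 ± 10.3 CPM at the low dose, 242 ± 16.3 CPM at the medium dose and 167 ± 4.70 CPM at the high dose (SD, n = 3 each).

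**Figure D4:**
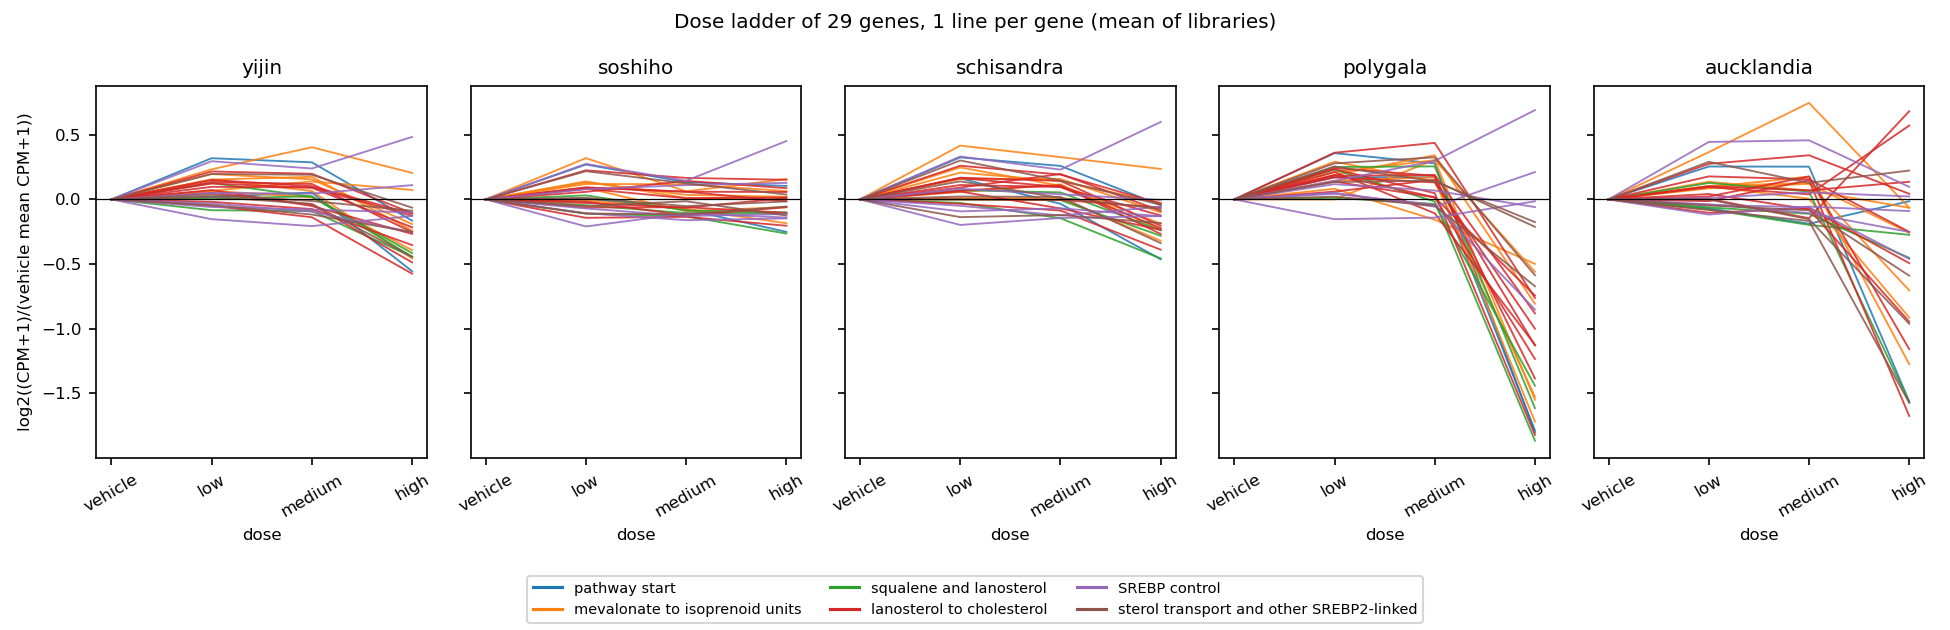
Mean level of 29 genes relative to the vehicle mean (log2 of CPM + 1) at vehicle, low, medium and high dose of 5 extracts, 1 line per gene coloured by role. Most lines stay near or above the vehicle level up to the medium dose and most drop at the high dose of yijin, schisandra and polygala; with aucklandia 10 of the 30 genes were lower and 1 was higher at the high dose than at the low dose by at least 1.5-fold.

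Against vehicle the picture depended on the gene and on the scaling. The vehicle libraries carry a code of their own in the labels and a higher mitochondrial share, so the extract and the code set cannot be told apart in these comparisons, and all of them use the same 3 vehicle libraries. At the low dose 7 genes were higher and 0 lower with yijin (7.11% and 8.12% of tested genes), 5 and 1 with soshiho (5.48% and 6.45%), and 11 and 1 with schisandra (10.5% and 11.0%). The counts were 8 and 0 with liriope (7.62% and 8.96%), 13 and 1 with longan (9.74% and 10.4%) and 11 and 0 with zizyphus (7.79% and 8.76%). ACAT2, FDPS, MSMO1 and STARD4 were higher at the low dose of all 6 extracts. The number of all tested genes that were higher in all 6 was not counted. ACAT2 was higher by 0.28 to 0.37 on the log2 scale. It measured 268, 248 and 252 CPM with longan against 197, 199.6 and 199 CPM in vehicle. These counts depend on the scaling: with library size alone the median of all tested genes moved up by 0.13 to 0.14 at the low doses and by 0.10 to 0.13 at the high doses (log2), against -0.05 to -0.01 between high and low dose, and 14 to 23 genes were then higher and 0 lower at the low dose. Single libraries moved the low-dose counts too: yijin gave 4 without vehicle replicate 3 or yijin low replicate 1, and soshiho gave 3 without vehicle replicate 2 and 2 without its low replicate 2 or 3. Liriope gave 4 without vehicle replicate 1 or its low replicate 3 and 5 without its low replicate 1. Longan gave 8 without vehicle replicate 1 and 7 without its low replicate 1, and zizyphus gave 7 without vehicle replicate 1 and 6 without its low replicate 1.

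At the high dose yijin lay below vehicle in 21 genes and above it in 1 (12.2% and 11.1% of tested genes; 13 and 2 with library size alone). Schisandra lay below in 14 and above in 1 (11.2% and 10.8%; 8 and 2 with library size alone), and soshiho below in 4 and above in 2 (11.1% and 10.6%; 1 and 6). With liriope 8 genes were above vehicle and 1 below (8.56% and 8.21%; 17 and 0), with longan 11 and 0 (9.64% and 9.98%; 22 and 0) and with zizyphus 4 and 1 (8.15% and 8.73%; 15 and 0). The calls with soshiho were 3 in all without its high replicate 2 or 3, those with liriope 5 without vehicle replicate 1, and those with zizyphus 9 without its high replicate 3. SQLE fell below vehicle with yijin (-0.44), soshiho (-0.26) and schisandra (-0.45), and so did HMGCS1 (-0.56, -0.25 and -0.46) and MVK (-0.40, -0.19 and -0.32). Genes that lay below vehicle with yijin by the largest amounts, INSIG1 aside, were ERG28 (-0.58, adjusted p = 1.88e-06), HMGCS1 and TM7SF2 (-0.49, adjusted p = 3.21e-10).

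Few of the 6 genes that control SREBP2 changed between high and low dose. SREBF2 itself fell with yijin, where it measured 248, 243 and 241 CPM at the high dose, against 292, 285 and 280 CPM at the low dose. The groups did not overlap (log2 change -0.23, SE 0.046, adjusted p = 0.00057). It measured 266 and 272 CPM at the high dose, against 273 and 283 CPM at the low dose of soshiho. With schisandra it measured 264, 268 and 268 CPM at the high dose, against 243, 278 and 297 CPM at the low dose, with the outlying low replicate 1 the lowest of all 6. Liriope gave 279, 273 and 288 CPM at the high dose, against 288, 292 and 301 CPM at the low dose. Longan gave 279, 272 and 281 CPM at the high dose, against 279.5, 289 and 290.1 CPM at the low dose, and zizyphus 284, 277 and 300.5 CPM at the high dose, against 286, 299.9 and 288 CPM at the low dose. Outside yijin its log2 changes lay between -0.07 and -0.02 and did not pass the test. SCAP, MBTPS1 and MBTPS2 were not called with any extract between high and low dose, with log2 changes from -0.09 (MBTPS2, schisandra) to 0.08 (SCAP, schisandra).

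Where it was called, INSIG2 was higher, not lower. It was above vehicle at the high dose of all 6 replicated extracts, by 0.22 with liriope to 0.62 with schisandra (log2). It was also called above vehicle at the low dose of 5 extracts, and between high and low dose only with schisandra. All comparisons with vehicle use the same 3 libraries, which carry a code of their own. How many of all tested genes lay above vehicle in all 6 was not counted. With liriope INSIG2 measured 39.5, 34.9 and 41.5 CPM at the high dose, against 34.2, 32.2 and 33.1 CPM in vehicle. With yijin it measured 47.3, 47.3 and 45.7 CPM at the high dose, against 43.3, 39.1 and 40.7 CPM at the low dose; these did not overlap, and the change missed the threshold (log2 change 0.19, SE 0.067, adjusted p = 0.0744). INSIG1, the other member of the pair and itself a known SREBP2 target, was too low to compare. With yijin it had 6, 3 and 4 counts at the high dose and 8, 7 and 9 counts at the low dose, with soshiho 7 and 4 counts at the high dose and 8 and 10 counts at the low dose, and with schisandra 7, 5 and 4 counts at the high dose and 8, 7 and 8 counts at the low dose. With liriope it had 8, 11 and 4 counts at the high dose and 5, 7 and 4 counts at the low dose, with longan 9, 11 and 5 counts at the high dose and 5, 4 and 6 counts at the low dose, and with zizyphus 7, 5 and 9 counts at the high dose and 9, 7 and 7 counts at the low dose. All 6 high over low dose changes of INSIG1 failed the test (smallest adjusted p = 0.25, with yijin).

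Polygala and aucklandia have 1 library per dose, so these differences have no replicate check, and the intervals cover counting error only. At the high dose of polygala 21 of the 30 genes were lower than at the low dose by at least 1.5-fold on the log2(CPM + 1) scale and 0 were higher, against 16.7% of tested genes lower and 14.4% higher. The median log2 difference over the 30 genes was -1.09, against 0.008 over all tested genes. ACAT2 stood at 56.6 CPM at the high dose (95% interval 53.6 to 59.7), against 256 CPM at the low dose (95% interval 249.9 to 263), a 4.47-fold lower level. FDFT1 stood at 132 CPM at the high dose (95% interval 128 to 137), against 569.6 CPM at the low dose (95% interval 559.9 to 579.5). DHCR7, which did not pass the test with schisandra, stood at 86.8 CPM at the high dose (95% interval 83.2 to 90.7), against 364 CPM at the low dose (95% interval 357 to 372). HMGCS1 stood at 114 CPM at the high dose, against 445 CPM at the low dose, and SREBF2 at 162 against 302 CPM. INSIG1 stood at 0.25 CPM at the high dose (95% interval 0.0917 to 0.544), against 0.35 CPM at the low dose (95% interval 0.151 to 0.69). The 9 genes within 1.5-fold were PMVK, GGPS1, INSIG1, INSIG2, SCAP, MBTPS1, MBTPS2, TMEM97 and RDH11, and INSIG2 was the highest of them relative to the low dose (54.5 CPM at the high dose, against 37.0 CPM). Between low and medium dose of polygala 0 of the 30 genes passed 1.5-fold (1.06% of tested genes lower, 0.762% higher). Of the 6 hepatocyte markers 5 were also lower at the high dose of polygala, with log2 differences of -0.91 for APOA2 to -1.86 for TF, and HNF4A was at 0.05; their part in the result was not tested.

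At the high dose of aucklandia 10 of the 30 genes were lower than at the low dose by at least 1.5-fold and 1 was higher, against 18.2% of tested genes lower and 18.5% higher, so the share higher lay below and the share lower above the background. The lowest relative to the low dose were ACAT2 with 67.0 CPM at the high dose (95% interval 63.6 to 70.5), against 239 CPM at the low dose (95% interval 233 to 244), LSS with 112 CPM at the high dose (95% interval 108 to 117), against 365 CPM at the low dose (95% interval 358 to 372) and TM7SF2 with 26.8 CPM at the high dose (95% interval 24.7 to 29.1), against 87.0 CPM at the low dose (95% interval 83.6 to 90.6). The other 7 were MVK, MVD, FDPS, EBP, DHCR7, TMEM97 and RDH11. The gene that was higher was SC5D, a sterol desaturase, with 171 CPM at the high dose (95% interval 166 to 176), against 106 CPM at the low dose (95% interval 103 to 110.4). CYP51A1 stood at 351 CPM against 252 CPM, HMGCS1 at 391 against 377 CPM, SQLE at 331 against 379.8 CPM and SREBF2 at 246 against 286 CPM, all within 1.5-fold. INSIG1 stood at 0.6 CPM at the high dose (95% interval 0.32 to 1.03), against 0.219 CPM at the low dose (95% interval 0.0804 to 0.477). Between low and medium dose 0 genes passed 1.5-fold (0.638% of tested genes lower, 0.880% higher). At 2-fold 7 genes were past the limit between high and low dose of aucklandia. Of the 6 hepatocyte markers 5 were also lower at the high dose of aucklandia, with log2 differences of -0.50 for ALB to -1.34 for HNF4A, and FGB was at -0.02; their part in the result was not tested.

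**Figure D5:**
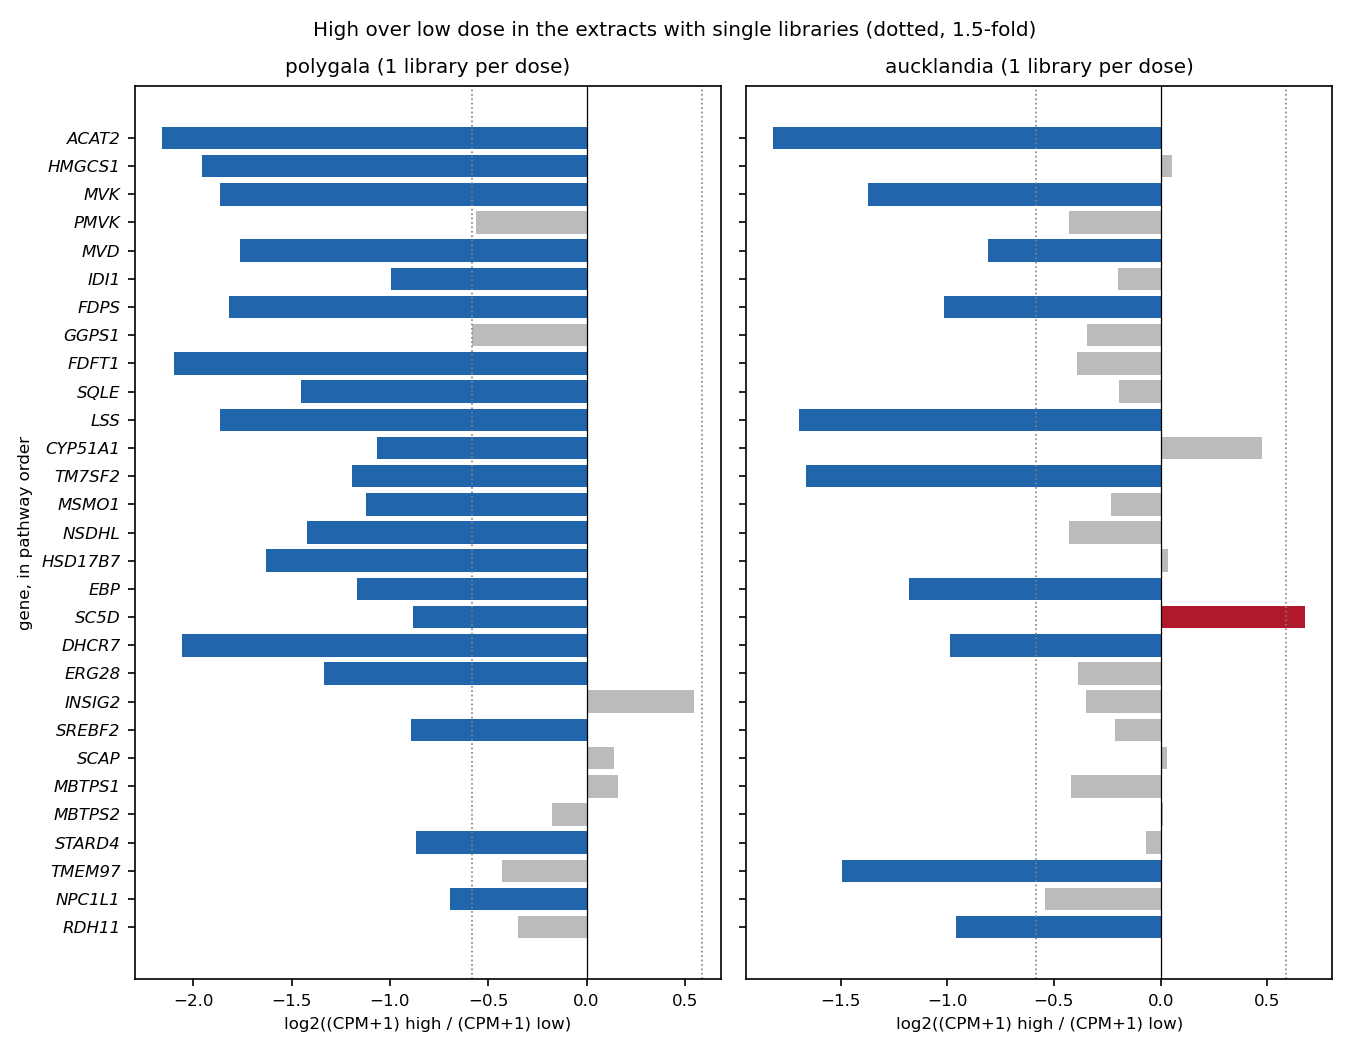
Log2 difference of (CPM + 1) at the high over the low dose of polygala and aucklandia for 29 genes in pathway order; dotted lines mark 1.5-fold, and blue and red bars pass it downward and upward. With polygala blue bars run along the pathway from ACAT2 to ERG28 except PMVK and GGPS1; with aucklandia ACAT2, LSS and TM7SF2 are far below 0 while HMGCS1 and CYP51A1 are not and SC5D is above 1.5-fold.

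The neighbouring lipid pathways give the context. Of 16 genes of fatty acid synthesis, the domain of the related factor SREBP1, 15 were tested. Between high and low dose 9 of them fell with yijin, 10 with schisandra and 6 with soshiho, 0 rose (4.01, 3.40 and 2.27% of all tested genes were called lower with yijin, schisandra and soshiho), and 0 were called with liriope, longan or zizyphus in edgeR (0, 0 and 0 in either direction; unadjusted p under 0.05 in 4, 0 and 7). Their median log2 changes were -0.28 with yijin, -0.2 with schisandra and -0.13 with soshiho, against -0.003, -0.006 and -0.002 over all tested genes. With yijin the smallest p-values belonged to ACSS2, which makes acetyl-CoA from acetate (log2 change -0.87, SE 0.041, adjusted p = 2.74e-20), and the fatty acid desaturases FADS2 (log2 change -0.57, SE 0.046, adjusted p = 2.99e-12) and FADS1 (log2 change -0.37, SE 0.04, adjusted p = 5.97e-09). With soshiho, where 3 of the 30 cholesterol genes fell, the largest fall of this list was that of GPAM, the first enzyme of triglyceride synthesis (log2 change -0.53, SE 0.067, adjusted p = 1.44e-07), followed by SREBF1 (log2 change -0.43, SE 0.071, adjusted p = 3.23e-05). Large falls were not limited to the cholesterol genes in the extracts with 1 library per dose, which allow no test. Between high and low dose of polygala the log2 differences of the 15 genes ran from -2.76 (ACSS2) to -0.25 (ACSL3). With aucklandia they ran from -2.69 (GPAM) to 0.47 (ELOVL5), and only ELOVL5 and ACSL3 (0.41) lay above 0.

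Other sterol gene lists were counted in the same way. Beside them, 4.01% of all tested genes were called lower and 3.78% higher with yijin, 2.27% and 2.81% with soshiho, and 3.40% and 3.92% with schisandra, and the all-gene medians were those just given. Over 8 tested genes around the sterol sensor LXR (its receptor genes and targets, some of them sterol exporters), the median log2 change was -0.06 with yijin, -0.09 with soshiho and -0.05 with schisandra. Over 8 tested genes of sterol storage and trafficking, the median log2 change was 0.07 with yijin, 0.03 with soshiho and 0.08 with schisandra. Over 7 tested genes of sterol-regulated degradation, the median log2 change was 0.07 with yijin, -0.02 with soshiho and 0.03 with schisandra. Over 7 tested genes of bile acid synthesis, the median log2 change was -0.17 with yijin, 0.1 with soshiho and -0.04 with schisandra. Of the 8 LXR-linked genes 0 were called with yijin and with schisandra (edgeR; unadjusted p under 0.05 in 1 and 2), and with soshiho 2 fell, ABCG8 and MYLIP. Of 8 tested genes of sterol storage and trafficking, NPC1, which moves cholesterol out of lysosomes, rose with yijin (log2 change 0.20, SE 0.045, adjusted p = 0.00263), soshiho (log2 change 0.18, SE 0.055, adjusted p = 0.0396) and schisandra (log2 change 0.19, SE 0.045, adjusted p = 0.00543). GRAMD1A, a sterol transfer protein of the endoplasmic reticulum, rose with soshiho and schisandra. Of 7 genes of sterol-regulated degradation, ERLIN2 rose with yijin (log2 change 0.14, SE 0.037, adjusted p = 0.0148) and soshiho (log2 change 0.19, SE 0.046, adjusted p = 0.00424), and FAF2 rose with yijin (log2 change 0.12, SE 0.041, adjusted p = 0.0486). Of 7 tested genes of bile acid synthesis, AKR1D1 (log2 change -0.26, SE 0.069, adjusted p = 0.0107) and CYP27A1 (log2 change -0.17, SE 0.053, adjusted p = 0.0312) fell with yijin, AKR1D1 fell with schisandra, and 0 were called with soshiho (unadjusted p under 0.05 in 1). With liriope, longan and zizyphus 0 genes of these 4 lists were called in edgeR (unadjusted p under 0.05 in at most 1 gene of a list). Beside these values, FGB and TF of the 6 hepatocyte markers fell with yijin and FGB fell with schisandra. The fibroblast gene COL1A1 fell with soshiho in edgeR (log2 change -1.22, SE 0.37, adjusted p = 0.0441). COL1A1 was near the floor: the 4 fibroblast markers together summed to 0.394 to 1.45 CPM in treated libraries, and soshiho had 2 libraries per dose. Whether these marker changes had a part in the results was not tested.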

How the data were processed

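RNA from HepG2 cells was made into directional libraries and sequenced as 100 bp pairs, per the labels' protocols. The authors deposited RSEM expected counts per gene, made with FastQC 0.11.9, Trim Galore 0.6.5, STAR 2.7.3a and RSEM 1.3.3 on hg38, per the submitters' processing notes; the annotation release and strand setting are not given in the sources used here. A fraction was present in 10.4% of these expected counts, which were rounded before the fit. Symbols came from a table of gene names, which held 56558 of the 60675 identifiers.

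The 54 libraries of 19 replicated groups were fitted together with edgeR 4.0.16 (R 4.3.3; TMM scaling, filterByExpr, quasi-likelihood test), without a replicate block. P-values were adjusted by Benjamini-Hochberg within each comparison over 16924 genes, and an adjusted p under 0.05 was called. CPM used TMM over the 54 libraries, and over all 60 for polygala, aucklandia and the figures. The summed marker levels used library size alone. Groups of 1 library were compared as log2(CPM + 1) without a test, with exact binomial (Clopper-Pearson) 95% intervals. The fit was also run on simulated counts with the same spread for every gene. That setting is simpler than these libraries, so it does not show how the fit performs on them. Alternatives were library size alone, no filter, DESeq2 1.42.0, the replicate block, only the libraries compared, each library left out, and, chosen after seeing the data, both outlying libraries left out. The members, gene lists and naming rule were chosen with earlier results of these data known. By that rule values per library are given for up to 4 called members with the largest high over low dose change in each extract, and for HMGCS1, INSIG1 and SREBF2 in all. Members called against the main direction are named too. For differences, single-library extracts and other lists up to 3 genes are named, by smallest p or largest fold; other genes named were chosen after their values were seen. A positive control of the study is not analysed here, and a list of genes that use isoprenoids is not reported here. The series text and the sample labels differ on the DMSO share, and the sample labels were followed.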

Additional observations from a re-analysis of the deposited data

Results flagged for a closer look

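The results singled out here are differences between extracts in the change from low to high dose, each past the threshold in edgeR's quasi-likelihood test of the difference itself. The counts among the 30 genes were 9 for yijin minus soshiho, 1 for yijin minus schisandra, 19 for yijin minus liriope, 17 for yijin minus longan and 14 for yijin minus zizyphus. They were 4 for soshiho minus schisandra, 19 for schisandra minus liriope, 13 for schisandra minus longan and 7 for schisandra minus zizyphus.

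The genes with the smallest p-values in each pair, as differences of log2 changes, were these. Yijin minus soshiho gave -0.50 for TM7SF2, -0.38 for DHCR7 and -0.44 for LSS, and yijin minus schisandra gave -0.29 for DHCR7. Yijin minus liriope gave -0.53 for ACAT2, -0.53 for TM7SF2 and -0.38 for SQLE. Yijin minus longan gave -0.54 for TM7SF2, -0.59 for LSS and -0.37 for SQLE. Yijin minus zizyphus gave -0.41 for ACAT2, -0.46 for TM7SF2 and -0.48 for LSS. Soshiho minus schisandra gave 0.31 for CYP51A1, 0.27 for SQLE and 0.36 for HMGCS1. Schisandra minus liriope gave -0.44 for SQLE, -0.56 for HMGCS1 and -0.40 for ACAT2. Schisandra minus longan gave -0.43 for SQLE, -0.56 for HMGCS1 and -0.37 for CYP51A1. Schisandra minus zizyphus gave -0.36 for SQLE, -0.46 for HMGCS1 and -0.30 for CYP51A1. Without the outlying schisandra low replicate 1 the named differences of schisandra from liriope, longan and zizyphus ran from -0.44 to -0.274. Leaving it out gave -0.275 for DHCR7 in yijin minus schisandra. In soshiho minus schisandra it gave 0.283 for CYP51A1, 0.219 for SQLE and 0.241 for HMGCS1, which lost its call.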

How the results depend on the processing

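The counts of genes called between high and low dose with yijin, schisandra, liriope, longan and zizyphus stayed within 1.5 times the reported count under every alternative tried, and 0 called genes changed sign. With library size alone the low-dose counts against vehicle were 22 for yijin, 14 for soshiho, 22 for schisandra, 23 for liriope, 22 for longan and 23 for zizyphus; the high-dose counts were 17 for liriope, 22 for longan and 15 for zizyphus, and high against medium dose of soshiho gave 0. Without the filter on low counts, high against low dose of soshiho gave 1 and medium against low dose of schisandra gave 1. DESeq2 gave 2 for high against medium dose of soshiho, 3 for yijin minus schisandra and 2 for soshiho minus liriope. Fitting only the libraries compared and vehicle gave 6 for schisandra and 3 for liriope (low dose against vehicle), 3 for liriope and 3 for zizyphus (high dose against vehicle), 15 for yijin minus soshiho, 0 for yijin minus schisandra and 1 for soshiho minus schisandra, and for schisandra minus liriope, longan and zizyphus 9, 6 and 2. At 2-fold aucklandia had 7 genes. The cause of these shifts was not tested, except that fewer libraries enter the restricted fit.

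Leaving out 1 library at a time gave 21 to 22 genes for yijin and 17 to 22 for schisandra between high and low dose, and 0 to 2 for soshiho. Against vehicle the low-dose counts ranged from 4 to 6 for yijin, 2 to 6 for soshiho, 4 to 7 for liriope, 7 to 12 for longan and 6 to 11 for zizyphus, and the high-dose counts from 3 to 7 for soshiho, 5 to 8 for liriope and 4 to 9 for zizyphus. High against medium dose of soshiho gave 0 to 1 and medium against low dose of schisandra 0 to 3. For differences between extracts the ranges were 5 to 9 (yijin minus soshiho), 1 to 5 (yijin minus schisandra), 1 to 5 (soshiho minus schisandra), 0 to 1 (soshiho minus liriope), 7 to 14 (schisandra minus longan) and 4 to 8 (schisandra minus zizyphus). The direction turned in changes that had not passed the test: SREBF2 with schisandra (-0.11 without low replicate 1 to 0.033 without low replicate 3), SREBF2 with zizyphus (-0.057 without high replicate 3 to 0.003 without high replicate 2) and INSIG1 with zizyphus (-0.265 without high replicate 3 to 0.064 without low replicate 1, and 0.03 without high replicate 2).

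Samples share replicate numbers across groups, but over 17 pairs of high-dose and low-dose libraries with the same number the correlation of deviations from the group mean ran from -0.15 to 0.209, with 2 over 0.1, so the numbers were not taken as pairs. As a hint only, 1 of 3 high-dose libraries of yijin, 2 of 3 of schisandra, liriope and longan, and 0 of 3 of zizyphus correlated best with the low-dose library of their own number. With the replicate block 23 genes were called for yijin, 4 for soshiho and 22 for schisandra between high and low dose, 2 for high against medium dose of soshiho, 3 for yijin minus schisandra and 1 for soshiho minus liriope. INSIG1 had 11 counts or fewer in each of the 54 libraries of the replicated groups, too few to compare. The reason for its low level was not tested.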
